A study of Homo sapiens with 8 samples.

Results

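The nuclear-encoded subunits of the mitochondrial respiratory chain and of ATP synthase were described in Calu-6, an established human line of NSCLC (non-small-cell lung cancer) whose labelled genotype is WT. The rows were chosen by a symbol rule that used no values, though earlier results of these data were known. The rule took the NDUFA, NDUFB, NDUFC, NDUFS and NDUFV genes and SDHA to SDHD. It also took the UQCR genes, the COX4 to COX8 subunit genes, the ATP5 genes, CYC1 and CYCS. This gave 84 of 14535 genes, of which 83 passed the filter on low values (at least 1 CPM, or reads scaled to a common library size, in at least 2 libraries) and entered the test. By complex they were 36 rows of complex I, 4 of complex II, 9 of complex III, 11 of complex IV, 15 of complex V (ATP synthase) and CYCS. The other 8 rows carried a matching symbol but were paralogs, pseudogenes, an antisense RNA or associated factors. The mitochondrially encoded mRNAs of the same complexes are not analysed here.

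Cells in culture plates received 1 µM KI696 for 24 h, DMSO (the vehicle) for 24 h, 1 µM KI696 for 48 h, or DMSO for 48 h. KI696 is a small molecule that binds KEAP1 and blocks its interaction with the transcription factor NRF2 (gene NFE2L2). Each of the 4 groups had 2 poly(A)-selected mRNA libraries, called A and B here. Whether A and B were separate cultures is not stated. So p-values here set a group difference only against the spread between libraries of a group, which may be technical. That spread is pooled over the 4 groups and drawn toward that of other genes. All results are from a single cell line.

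Electrons from NADH enter the chain at complex I, the main NADH oxidizer of mitochondria, and electrons from succinate enter at complex II, which is also an enzyme of the citric acid cycle. Both reduce ubiquinone, complex III passes the electrons on to cytochrome c, and complex IV gives them to oxygen. Complexes I, III and IV pump protons across the inner membrane, and ATP synthase uses the resulting gradient to make ATP. All but complex II combine subunits from nuclear and mitochondrial genes, so the mRNAs measured here cover one side of a joint assembly. In bulk RNA, fewer cells of a kind and less RNA per cell cannot be told apart.

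The 8 libraries held 6974235 to 14170211 reads assigned to genes. Known NRF2 targets checked the labels: GCLC, a subunit of the enzyme that starts glutathione synthesis, had 329 and 335 CPM in the KI696 libraries at 24 h, against 66.0 and 60.5 CPM in the DMSO libraries, and 8 of 9 genes of the NRF2 check rose at each time. In all tested genes the median log2 change at 24 h was -0.12 on the deposited scale and -0.01 after TMM scaling (trimmed mean of M-values, which sets the libraries level on the bulk of the genes). At 48 h these medians were -0.08 and -0.01. Subunit calls that were lost with TMM scaling are therefore marked below, in some cases with the TMM value. Libraries also differed in epithelial and lung lineage markers. The summed level of KRT8, KRT18, KRT19, EPCAM and CDH1 was 756 to 811 CPM in KI696 libraries at 24 h, against 1611 to 1936 CPM in DMSO libraries, and 832 to 1073 CPM in KI696 libraries at 48 h, against 1438 to 1453 CPM in DMSO libraries. KRT8 and KRT18 made up most of this sum. At 48 h CDH1 had 29.0 and 4.46 CPM in KI696 libraries, against 34.3 and 7.39 CPM in DMSO libraries. The ranges of CDH1, EPCAM and KRT19 thus overlapped between treatments at 48 h and were wide within each group. NKX2-1, which encodes a lung lineage factor, had 0.857 and 2.14 CPM in KI696 libraries at 24 h, against 29.0 and 19.4 CPM in DMSO libraries. At 48 h it had 12.8 and 1.16 CPM in KI696 libraries A and B, against 12.1 and 2.49 CPM in DMSO libraries A and B, so each group at 48 h held 1 higher and 1 lower library. The 5 lung lineage markers found summed to 60.5 to 62.0 CPM in KI696 libraries at 24 h, against 136 to 145 CPM in DMSO libraries, and to 63.6 to 87.8 CPM in KI696 libraries at 48 h, against 116 to 126 CPM in DMSO libraries, with SFTPB at 0 in 4 of 8 libraries. Fibroblast and endothelial markers summed to 24.8 to 27.8 CPM in KI696 libraries at 24 h, against 84.6 to 90.7 CPM in DMSO libraries, and to 35.9 to 47.1 CPM in KI696 libraries at 48 h, against 103 to 106 CPM in DMSO libraries. Leukocyte markers summed to 36.3 to 39.1 CPM in KI696 libraries at 24 h, against 46.5 to 46.9 CPM in DMSO libraries, and to 27.8 to 28.6 CPM in KI696 libraries at 48 h, against 40.7 to 43.4 CPM in DMSO libraries. Each of these sums rested on few genes. ABCA3 was the largest part of the lung lineage sum in every library. PDGFRB and COL1A1 made up most of the fibroblast and endothelial sum, and CD68 most of the leukocyte sum. At 48 h NAPSA had 12.8 and 0.194 CPM in KI696 libraries, against 3.70 and 0.498 CPM in DMSO libraries, with overlap. SFTPA1 also overlapped at 48 h. The part of the epithelial, fibroblast, endothelial and leukocyte markers in the results was not tested. A fit was run with, as a covariate, the mean log2 level of a longer list of lung lineage genes that passed the filter. The counts of this fit are given for all rows and for each complex. The covariate was 1.13 and 1.45 in KI696 libraries at 24 h, against 3.93 and 4.04 in DMSO libraries. At 48 h it was 3.34 and 0.784 in KI696 libraries, against 2.84 and 1.73 in DMSO libraries. At 24 h it thus parted the 2 treatments, so a call lost with it there cannot separate lineage level from treatment.

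Across the chain the changes were small and went both ways. At 24 h, 8 of the 83 tested subunit rows rose and 16 fell in KI696 cells, 9.64% and 19.3% of them, while 18.1% of all tested genes rose and 30.5% fell (48.6% in either direction). At 48 h, 29 rose and 7 fell, 34.9% and 8.43%, against 22.4% rising and 26.4% falling among all tested genes (48.8% in either direction). The median log2 change over the subunit rows was -0.02 at 24 h and 0.11 at 48 h. With TMM scaling 18 rose and 1 fell at 24 h, with a median of 0.08, and 36 rose and 4 fell at 48 h, with a median of 0.17. On that scale 24.8% of all tested genes rose and 23.4% fell at 24 h, and 25.6% rose and 22.5% fell at 48 h. Under both scalings the share of falling rows was below that of all genes at both times, and the share of rising rows was below it at 24 h and above it at 48 h. With the lung lineage covariate 3 rose and 0 fell at 24 h (8.65% and 15.1% of all tested genes), and 31 rose and 7 fell at 48 h (23.5% and 28.8% of all tested genes). The calls that held in all alternatives run, leaving out each library included, were 2 of the 8 rises at 24 h (CYCS and ATP5D), 0 of the 16 falls at 24 h, 17 of the 29 rises at 48 h and 4 of the 7 falls at 48 h (among them NDUFS1, SDHA and SDHC). Of the falls at 24 h, 15 were lost when some library was left out.

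Only 1 of the 83 rows reached an absolute log2 change of 0.5 at 24 h, and 3 did at 48 h; none reached 1. The rows summed to 12778 and 12382 CPM in KI696 libraries at 24 h, against 12774 and 12292 CPM in DMSO libraries. At 48 h the sums were 14157 and 14090.2 CPM in KI696 libraries, against 13099 and 12934 CPM in DMSO libraries, and the 2 ranges did not overlap. Both KI696 libraries lay above both DMSO libraries for 21 rows at 24 h (25.3%, with 29.7% of all tested genes) and for 47 rows at 48 h (56.6%, with 32.5% of all tested genes). They lay below for 30 rows at 24 h (36.1%, with 47.4% of all tested genes) and for 17 rows at 48 h (20.5%, with 40.5% of all tested genes).

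**Figure D1:**
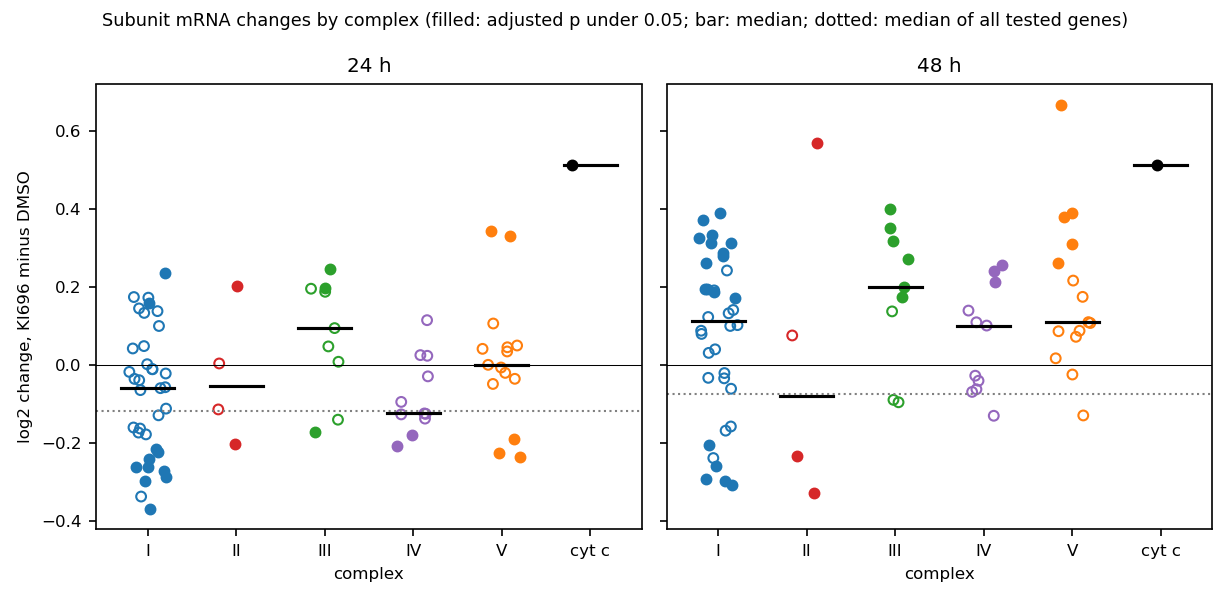
Log2 change of each tested subunit mRNA (KI696 minus DMSO, vertical axis) by complex at 24 h and 48 h, with filled points for adjusted p under 0.05, a bar at the median of each complex and a dotted line at the median of all tested genes. At 24 h most complexes straddle 0 and CYCS stands alone at 0.51; at 48 h the medians of complexes I, III, IV and V lie between 0.10 and 0.20 and that of complex II at -0.08.

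Complex I, the NADH dehydrogenase, split. At 24 h 2 of its 36 subunit mRNAs rose and 9 fell (median log2 change -0.06); at 48 h 13 rose and 5 fell (median 0.11). With TMM scaling the counts were 7 rising and 1 falling at 24 h (median 0.05, so the sign of the median turned) and 16 rising and 2 falling at 48 h (median 0.17). With the covariate 0 rose and 0 fell at 24 h, and 14 rose and 5 fell at 48 h. Summed over the complex, the level was 3533 and 3328 CPM in KI696 libraries at 24 h, against 3596 and 3454 CPM in DMSO libraries, with overlapping ranges. At 48 h it was 3911 and 3779 CPM in KI696 libraries, against 3625 and 3542 CPM in DMSO libraries. As a plain percent of the reads in each library, the ranges at 24 h did not overlap. They were 0.353 and 0.335 in KI696 libraries, against 0.367 and 0.354 in DMSO libraries. The ranges at 48 h overlapped. They were 0.384 and 0.363 in KI696 libraries, against 0.371 and 0.352 in DMSO libraries.

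The nuclear core subunits, which carry the flavin and the iron-sulfur clusters, did not move together. NDUFS1, the largest core subunit and the holder of several iron-sulfur clusters of the NADH-oxidizing arm, had 87.8 and 84.1 CPM in the KI696 libraries at 24 h, against 105 and 94.9 CPM in the DMSO libraries (log2 change -0.22 ± 0.07 (SE), adjusted p = 0.0216). For the later time the levels were 87.6 and 88.9 CPM in KI696 libraries, against 105 and 107 CPM in DMSO libraries (log2 change -0.26 ± 0.07 (SE), adjusted p = 0.0073). The groups did not overlap at either time, and the fall at 24 h did not pass with TMM scaling (adjusted p = 0.247).

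Several other core subunits went up or stayed short of the threshold. NDUFS3, in the arm that hands electrons to ubiquinone, had 99.1 and 105 CPM in the KI696 libraries at 48 h, against 82.6 and 84.4 CPM in the DMSO libraries (log2 change 0.29 ± 0.07 (SE), adjusted p = 0.00571). NDUFS7, which carries the last iron-sulfur cluster before ubiquinone, had 124 and 129 CPM in the KI696 libraries at 48 h, against 102 and 109 CPM in the DMSO libraries (log2 change 0.26 ± 0.07 (SE), adjusted p = 0.0103). Both were called at 48 h and not at 24 h, where the log2 changes were 0.14 and 0.04. The call of NDUFS3 at 48 h held in all alternatives run. That of NDUFS7 was lost without the variance trend, without KI696 library B at 48 h and without DMSO library A at 48 h. NDUFV1, which binds NADH and the flavin, had 235 and 228 CPM in the KI696 libraries at 48 h, against 222 and 204 CPM in the DMSO libraries and did not pass at either time (log2 changes -0.13 and 0.12, adjusted p = 0.126 and 0.15). NDUFV2 and NDUFS8, which carry iron-sulfur clusters, had log2 changes of -0.01 and -0.01 at 24 h and of 0.03 and 0.10 at 48 h, and neither passed.

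Of the 29 accessory subunits, which surround the core and are needed for its assembly and stability, 2 rose at 24 h, and both also rose at 48 h. NDUFA9, which sits near the ubiquinone channel, had 211 and 216 CPM in the KI696 libraries at 24 h, against 187 and 195 CPM in the DMSO libraries (log2 change 0.16 ± 0.06 (SE), adjusted p = 0.0418), and a log2 change of 0.19 at 48 h. NDUFA10, a subunit of the membrane arm, had 168 and 159 CPM in the KI696 libraries at 24 h, against 141 and 136 CPM in the DMSO libraries (log2 change 0.23 ± 0.06 (SE), adjusted p = 0.0074), and a log2 change of 0.17 at 48 h. Neither was called at 24 h without KI696 library A, without DMSO library B or with the covariate, and NDUFA9 was also lost without either other library at 24 h, with quantile scaling and without the variance trend. At 48 h the call of NDUFA9 was lost without the variance trend and when KI696 library B or DMSO library B at 48 h was left out. That of NDUFA10 at 48 h (adjusted p = 0.037) was lost with quantile scaling, without the variance trend, with only the 2 groups compared, and when either DMSO library at 24 h, KI696 library B at 48 h or DMSO library B at 48 h was left out.

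NDUFA6, an accessory subunit with a LYR motif, had the lowest log2 change of the chain at 24 h. Its levels were 50.8 and 49.5 CPM in the KI696 libraries at 24 h, against 70.9 and 59.4 CPM in the DMSO libraries (log2 change -0.37 ± 0.09 (SE), adjusted p = 0.00417). It was the only row called lower at 24 h under TMM scaling (-0.26, adjusted p = 0.0284), and it was not called without DMSO library A. At 48 h both KI696 libraries still lay below both DMSO libraries, without passing the test (log2 change -0.06 ± 0.09 (SE), adjusted p = 0.598).

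NDUFB5, a membrane arm subunit, and NDUFA1, a small membrane subunit, were called lower at both times on the deposited scale. For NDUFB5 the levels were 118 and 108 CPM in the KI696 libraries at 24 h, against 137 and 133 CPM in the DMSO libraries, and the log2 changes were -0.26 at 24 h and -0.21 at 48 h. For NDUFA1 the levels were 40.2 and 39.2 CPM in the KI696 libraries at 24 h, against 51.3 and 44.3 CPM in the DMSO libraries, and the log2 changes were -0.26 and -0.30. All 4 calls were lost with TMM scaling. The other accessory subunits that fell at 24 h were NDUFA2 (-0.30), NDUFA8 (-0.22), NDUFV3 (-0.27) and NDUFC1 (-0.29). None of these 4 calls held with TMM scaling. None of these 4 rows was called at 48 h, where NDUFC1 had a log2 change of 0.24 (adjusted p = 0.057).

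At 48 h 11 accessory subunits rose. NDUFS6, a zinc-binding subunit of the NADH-oxidizing arm, had 172 and 148 CPM in the KI696 libraries at 48 h, against 119 and 124 CPM in the DMSO libraries (log2 change 0.39 ± 0.08 (SE), adjusted p = 0.00115). NDUFB7, a membrane arm subunit facing the intermembrane space, had 147 and 136 CPM in the KI696 libraries at 48 h, against 109.9 and 108 CPM in the DMSO libraries (log2 change 0.37 ± 0.06 (SE), adjusted p = 3.68e-04). In both cases every KI696 library lay above every DMSO library. NDUFB4, another membrane arm subunit, had 89.3 and 79.4 CPM in the KI696 libraries at 48 h, against 66.8 and 67.6 CPM in the DMSO libraries (log2 change 0.32 ± 0.08 (SE), adjusted p = 0.00371). NDUFB8, whose protein is often used as a marker of assembled complex I, had 197 and 207 CPM in the KI696 libraries at 48 h, against 164 and 168 CPM in the DMSO libraries (log2 change 0.28 ± 0.07 (SE), adjusted p = 0.00376). At 24 h NDUFB8 did not move beyond its error (log2 change -0.04 ± 0.07 SE).

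NDUFB2, an accessory subunit of the membrane arm, fell at 48 h, with 46.4 and 42.0 CPM in the KI696 libraries at 48 h, against 58.0 and 50.6 CPM in the DMSO libraries (log2 change -0.29 ± 0.10 (SE), adjusted p = 0.0318). It overlaps the antisense gene NDUFB2-AS1, listed at 1.36 to 2.06 CPM in these libraries, and since no source gives the strand setting of the counting, reads of the pair cannot be told apart. Its call was lost with TMM scaling (adjusted p = 0.0804).

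**Figure D2:**
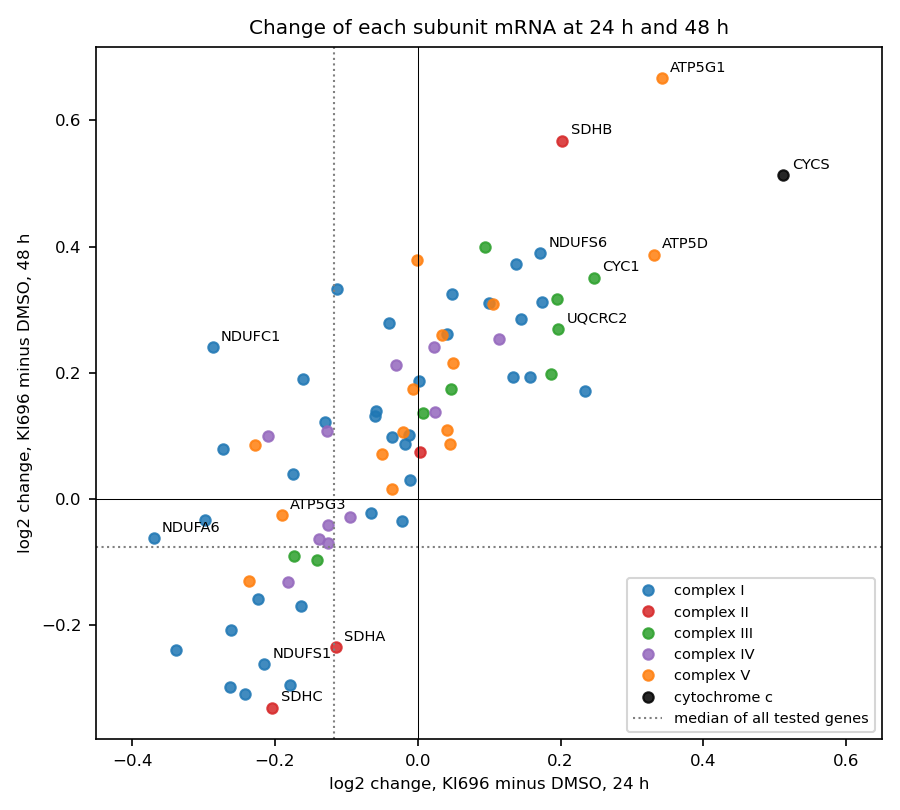
Log2 change (KI696 minus DMSO) of each subunit of complexes I to V and of CYCS at 24 h (horizontal axis) and 48 h (vertical axis), coloured by complex, with dotted lines at the medians of all tested genes. CYCS, ATP5G1, ATP5D, CYC1 and SDHB lie at the upper right, and NDUFS1 and SDHC at the lower left. No row was called in opposite directions. Opposite calls were also rare among all tested genes (27 of 13213), so this says little about the subunits.

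Complex II has only nuclear subunits, and its mRNAs moved apart, with 1 of 4 rising and 1 falling at 24 h (0 and 0 with the covariate) and 1 rising and 2 falling at 48 h (1 and 2 with the covariate). SDHB, the iron-sulfur subunit, had 108 and 109.6 CPM in the KI696 libraries at 24 h, against 97.8 and 91.5 CPM in the DMSO libraries (log2 change 0.20 ± 0.07 (SE), adjusted p = 0.0206). The later libraries had 126 and 132 CPM in KI696 libraries, against 86.7 and 87.2 CPM in DMSO libraries (log2 change 0.57 ± 0.07 (SE), adjusted p = 1.20e-05). The groups did not overlap at either time, and the call at 48 h held in all alternatives run. The call at 24 h was lost without KI696 library A, without KI696 library B, without DMSO library B, without the variance trend and with the covariate.

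SDHA, the flavoprotein that oxidizes succinate, had 267 and 281 CPM in the KI696 libraries at 48 h, against 326 and 319 CPM in the DMSO libraries (log2 change -0.23 ± 0.05 (SE), adjusted p = 0.00308). At 24 h its log2 change was -0.11 (adjusted p = 0.1). SDHA has transcribed pseudogene copies in the table, so its count is uncertain where the authors' counting could split reads. SDHC, a membrane anchor that helps bind ubiquinone and heme, had 73.7 and 80.8 CPM in the KI696 libraries at 24 h, against 91.9 and 86.1 CPM in the DMSO libraries (log2 change -0.20 ± 0.08 (SE), adjusted p = 0.0434), and at 48 h 82.7 and 75.4 CPM in KI696 libraries, against 102 and 97.2 CPM in DMSO libraries (log2 change -0.33 ± 0.08 (SE), adjusted p = 0.00312). The fall of SDHA and of SDHC at 48 h held in all alternatives run, and the fall of SDHC at 24 h did not pass with TMM scaling (adjusted p = 0.326). SDHD, the other anchor, had 85.8 and 97.3 CPM in the KI696 libraries at 48 h, against 89.6 and 84.0 CPM in the DMSO libraries and did not pass at either time.

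The gap between SDHB and SDHA within each library shows the same split without any scaling between libraries. The log2 level of SDHB minus that of SDHA was -1.37 and -1.28 in KI696 libraries at 24 h, against -1.60 and -1.69 in DMSO libraries. At 48 h it was -1.08 and -1.09 in KI696 libraries, against -1.91 and -1.87 in DMSO libraries. For SDHB minus SDHC it was 0.55 and 0.44 in KI696 libraries at 24 h, against 0.09 and 0.09 in DMSO libraries, and 0.61 and 0.81 in KI696 libraries at 48 h, against -0.23 and -0.16 in DMSO libraries. These differences carry no test of their own, and none of their ranges overlapped.

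The promoters of SDHB and SDHA are printed because the genes of this one enzyme moved in opposite directions, and those of CYCS and ATP5G1 because these mRNAs had the highest log2 changes outside complex II. The sequences are 300 bases each, from 250 bases before to 50 after the gene start in RefSeq (GRCh38.p14), read 5′ to 3′ on the gene's strand. Capitals mark GCGC, then 2 bases of any kind, then GCGC, the core that nuclear respiratory factor 1 (NRF1, a regulator of respiratory genes that is a different protein from NRF2) binds. CCGGAAGT, the ETS-type site of GABP, and TGANNNNGC, the core of the antioxidant response element that NRF2 binds, were also searched on both strands, and would be in capitals too.
SDHB (chr1:17053983-17054282, minus strand): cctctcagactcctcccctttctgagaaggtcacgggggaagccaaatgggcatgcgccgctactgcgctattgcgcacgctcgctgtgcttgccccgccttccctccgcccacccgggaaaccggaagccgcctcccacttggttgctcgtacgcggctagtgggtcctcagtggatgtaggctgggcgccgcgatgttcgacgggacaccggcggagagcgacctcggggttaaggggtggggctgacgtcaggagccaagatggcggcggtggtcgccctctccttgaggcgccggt
SDHA (chr5:218070-218369, plus strand): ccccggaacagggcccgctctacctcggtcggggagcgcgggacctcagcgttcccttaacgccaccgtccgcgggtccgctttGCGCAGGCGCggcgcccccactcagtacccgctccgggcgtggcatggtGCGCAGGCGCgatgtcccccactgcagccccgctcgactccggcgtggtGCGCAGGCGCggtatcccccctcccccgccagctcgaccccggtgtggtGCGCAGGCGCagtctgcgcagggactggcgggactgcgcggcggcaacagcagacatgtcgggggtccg
CYCS (chr7:25125211-25125510, minus strand): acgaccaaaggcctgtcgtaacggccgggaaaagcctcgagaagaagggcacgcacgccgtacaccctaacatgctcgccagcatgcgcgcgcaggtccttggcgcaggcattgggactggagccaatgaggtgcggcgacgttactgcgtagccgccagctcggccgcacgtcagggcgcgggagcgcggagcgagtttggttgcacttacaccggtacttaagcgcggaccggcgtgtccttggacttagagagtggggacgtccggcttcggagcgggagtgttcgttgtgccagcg
ATP5G1 (chr17:48892537-48892836, plus strand, current symbol ATP5MC1): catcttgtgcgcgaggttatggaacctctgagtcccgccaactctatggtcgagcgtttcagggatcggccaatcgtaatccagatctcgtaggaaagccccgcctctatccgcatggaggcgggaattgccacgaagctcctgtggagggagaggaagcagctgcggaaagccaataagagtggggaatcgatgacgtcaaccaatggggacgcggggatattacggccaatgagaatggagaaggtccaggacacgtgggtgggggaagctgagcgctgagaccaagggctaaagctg

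The SDHA window held 4 copies of the NRF1 core, and the windows of SDHB, CYCS and ATP5G1 held none of the 3 motifs. RefSeq windows matched 68 of the 84 rows. Among the 63 of these in complexes I to V or CYCS, 25.4% held the NRF1 core, against 8.78% of all 27305 promoters in the table. The ETS-type site stood in 14.3% of them, against 4.44% of all promoters, and the antioxidant response element core in 36.5%, against 42.1%. By complex, the NRF1 core was in 7 of 31 windows of complex I, 2 of 3 of complex II, 4 of 7 of complex III, 0 of 10 of complex IV and 3 of 11 of complex V. Among rows that rose at 48 h, 28.0% held the NRF1 core and 32.0% the antioxidant response element core, against 23.7% and 39.5% of the rows that did not rise. A match is a description of letters in this window and does not show binding.

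Complex III takes electrons from ubiquinol, and none of its subunits was called lower at 48 h. At 24 h 2 of its 9 subunits rose and 1 fell (median log2 change 0.09), and at 48 h 6 rose and 0 fell (median 0.20). With TMM scaling 5 rose and 0 fell at 24 h, and 6 rose and 0 fell at 48 h. The covariate left 0 calls at 24 h and the same counts at 48 h. Its summed level was 1856 and 1783 CPM in KI696 libraries at 24 h, against 1769 and 1714 CPM in DMSO libraries. At 48 h it was 2014 and 2053 CPM in KI696 libraries, against 1801 and 1827 CPM in DMSO libraries. As a percent of reads the ranges at 24 h overlapped (0.186 and 0.179 in KI696, 0.180 and 0.176 in DMSO libraries). Those at 48 h did not.

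CYC1, cytochrome c1, is the heme subunit that reduces cytochrome c. It had 359 and 337 CPM in the KI696 libraries at 24 h, against 291 and 296 CPM in the DMSO libraries (log2 change 0.25 ± 0.06 (SE), adjusted p = 0.00409). At 48 h the levels were 371 and 405 CPM in KI696 libraries, against 306 and 301 CPM in DMSO libraries (log2 change 0.35 ± 0.06 (SE), adjusted p = 2.96e-04). UQCRC2, a core subunit on the matrix side, had 283 and 289 CPM in the KI696 libraries at 24 h, against 253 and 246 CPM in the DMSO libraries (log2 change 0.20 ± 0.05 (SE), adjusted p = 0.0092) and a log2 change of 0.27 at 48 h. Neither gene's groups overlapped at either time, and both calls at 48 h held in all alternatives run. At 24 h both were lost with the covariate, CYC1 also without KI696 library A, and UQCRC2 also without the variance trend, without KI696 library B and without DMSO library B.

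UQCRH, the hinge subunit between cytochrome c1 and cytochrome c, had 217 and 197 CPM in the KI696 libraries at 48 h, against 157 and 157 CPM in the DMSO libraries (log2 change 0.40 ± 0.07 (SE), adjusted p = 2.84e-04). At 24 h its log2 change was 0.09 and it was not called. UQCRHL, an intronless copy of UQCRH with which it may share reads, was listed at 4.42 to 6.31 CPM. UQCRFS1, the Rieske iron-sulfur protein, had 126 and 147 CPM in the KI696 libraries at 48 h, against 115 and 123 CPM in the DMSO libraries (log2 change 0.20 ± 0.08 (SE), adjusted p = 0.0491), a call that was lost in several alternatives, among them leaving out any single library at 24 h, KI696 library B at 48 h or DMSO library A at 48 h. The 2 small subunits UQCRQ and UQCR11 completed the 6 that rose at 48 h, with log2 changes of 0.32 and 0.17. The call of UQCRQ held in all alternatives run, while that of UQCR11 was lost when any single library at 48 h was left out.

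UQCRC1, the core partner of UQCRC2, was not called at either time, with log2 changes of -0.14 at 24 h and -0.10 at 48 h. UQCRB, a ubiquinone-binding subunit, was the one called lower at 24 h, with 196 and 206 CPM in the KI696 libraries at 24 h, against 232 and 221 CPM in the DMSO libraries (log2 change -0.17 ± 0.07 (SE), adjusted p = 0.0485). Its call was lost with TMM scaling, and the sign turned to 0.02 with the covariate.

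CYCS, cytochrome c, the soluble carrier between complexes III and IV that also triggers apoptosis when released, had the highest log2 change of all rows at 24 h. It had 602 and 632 CPM in the KI696 libraries at 24 h, against 445 and 421 CPM in the DMSO libraries (log2 change 0.51 ± 0.06 (SE), adjusted p = 3.48e-05). After 48 h the levels were 610.3 and 565 CPM in KI696 libraries, against 434 and 390.3 CPM in DMSO libraries (log2 change 0.51 ± 0.06 (SE), adjusted p = 2.55e-05). All 4 KI696 libraries lay above all 4 DMSO libraries. Both calls held in every alternative run, with log2 changes of 0.42 to 0.67 at 24 h and 0.42 to 0.59 at 48 h. CYCS has processed pseudogenes elsewhere in the genome, so reads that fit several copies make its count uncertain.

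**Figure D3:**
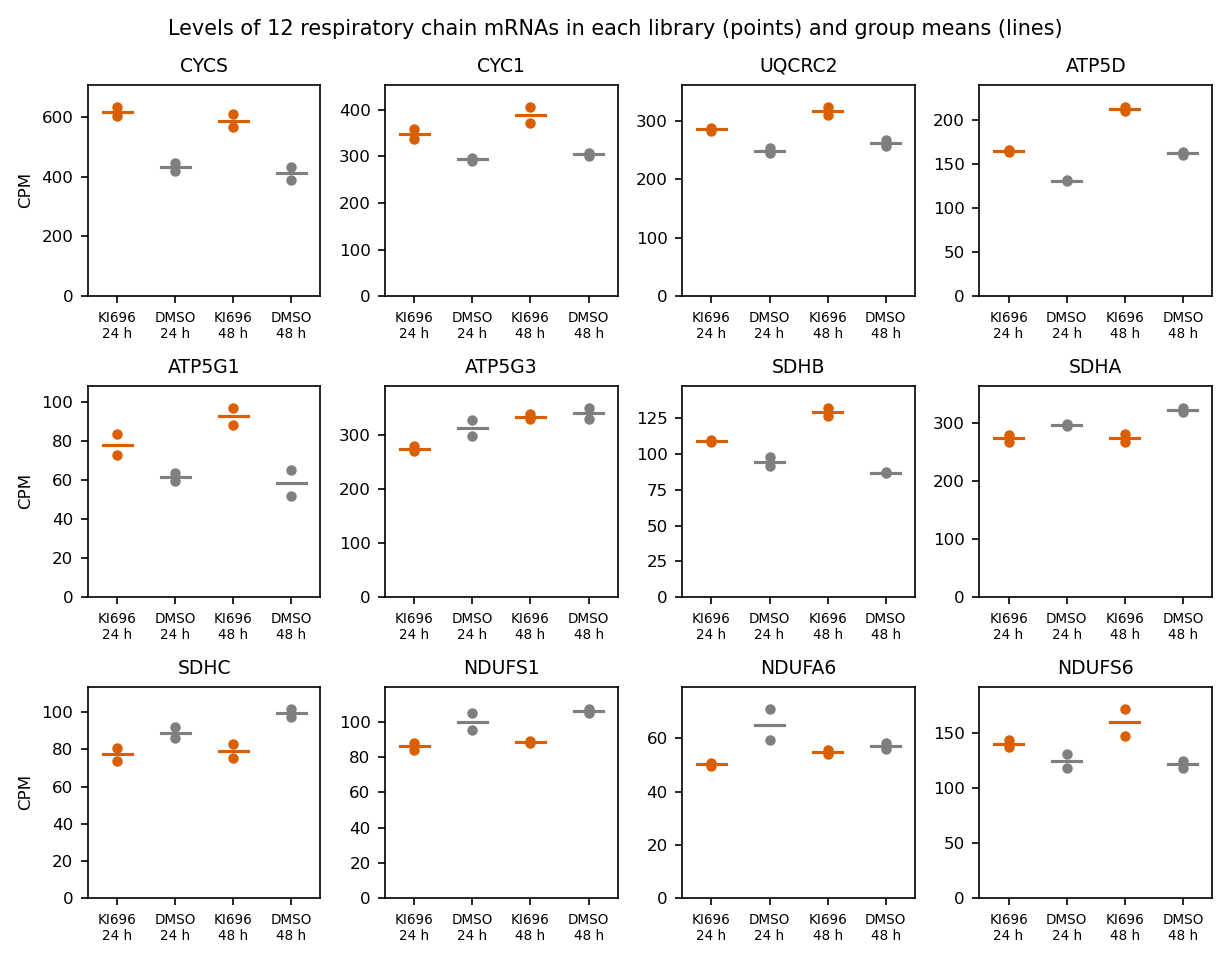
Level in CPM (vertical axes, from 0) of 12 subunit mRNAs in each library (points) with group means (lines), KI696 in orange and DMSO in grey at 24 h and 48 h. CYCS, CYC1, UQCRC2, ATP5D, ATP5G1 and SDHB are higher in KI696 libraries at both times without overlap; SDHC, NDUFS1 and NDUFA6 are lower.

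Complex IV, cytochrome c oxidase, had few calls. At 24 h 0 of its 11 nuclear rows rose and 2 fell (median log2 change -0.12), and 3 rose and 0 fell at 48 h (median 0.10). With TMM scaling 1 rose and 0 fell at 24 h, and 4 rose and 0 fell at 48 h. With the covariate there were 0 calls at 24 h, and 3 rose and 0 fell at 48 h. The summed level was 1988 and 1928 CPM in KI696 libraries at 24 h, against 2116 and 2039 CPM in DMSO libraries. At 48 h it was 2289 and 2265 CPM in KI696 libraries, against 2230.4 and 2181 CPM in DMSO libraries. As a percent of reads the ranges at 48 h overlapped (0.224 and 0.218 in KI696, 0.228 and 0.217 in DMSO libraries). Those at 24 h did not (0.199 and 0.194 in KI696, 0.216 and 0.209 in DMSO libraries).

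COX4I1, the largest nuclear subunit of complex IV and its usual protein marker, had 445 and 415 CPM in the KI696 libraries at 24 h, against 458 and 481 CPM in the DMSO libraries, and it was not called at either time (log2 changes -0.13 and -0.04, adjusted p = 0.0711 and 0.559). COX5A, which stabilizes the complex, had 249 and 253 CPM in the KI696 libraries at 48 h, against 224 and 233 CPM in the DMSO libraries and was not called (adjusted p = 0.0546). The 3 rows that rose at 48 h were small subunits: COX7B (log2 change 0.25 ± 0.07 (SE), adjusted p = 0.0087), COX7C (0.24, adjusted p = 0.0114) and COX8A (0.21, adjusted p = 0.0121). Each lost its call without DMSO library B at 48 h.

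NDUFA4, named for complex I but assigned to complex IV, had 155 and 154 CPM in the KI696 libraries at 24 h, against 179 and 172 CPM in the DMSO libraries (log2 change -0.18 ± 0.06 (SE), adjusted p = 0.0192). COX7A2, the widely expressed form of its subunit, had 98.2 and 91.4 CPM in the KI696 libraries at 24 h, against 117 and 103 CPM in the DMSO libraries (log2 change -0.21 ± 0.08 (SE), adjusted p = 0.0415). These were the 2 that fell at 24 h; neither call held with TMM scaling (adjusted p = 0.361 and 0.315) and neither passed at 48 h. NDUFA4L2, a hypoxia-inducible paralog of NDUFA4, stood at only 1.14 to 3.79 CPM in KI696 libraries and 1.80 to 3.77 CPM in DMSO libraries, and was not called. COX7A2L, a factor that joins complexes III and IV into supercomplexes, had 145 and 142 CPM in the KI696 libraries at 48 h, against 136 and 139 CPM in the DMSO libraries and was not called at either time. COX6B2, the testis form of COX6B, was the row left out of the test, with a highest value of 0.561 CPM. A count of 0, as in KI696 library B at 24 h, allows up to 3 reads or 0.428 CPM there, from counting error alone.

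Complex V, the ATP synthase, had 2 of 15 rows rising and 3 falling at 24 h (median log2 change 0), and 5 rising and 0 falling at 48 h (median 0.11). With TMM scaling 3 rose and 0 fell at 24 h, and 8 rose and 0 fell at 48 h. With the covariate these counts were 2 and 0 at 24 h, and 6 and 0 at 48 h. The main subunits of its catalytic head did not pass the test. ATP5B, the beta subunit, had 1506 and 1604 CPM in the KI696 libraries at 48 h, against 1433 and 1449.5 CPM in the DMSO libraries, and ATP5A1, the alpha subunit, had 760.2 and 814 CPM in the KI696 libraries at 48 h, against 732 and 765 CPM in the DMSO libraries. Neither was called at either time, with log2 changes at 48 h of 0.11 ± 0.05 and 0.07 ± 0.05 (SE).

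ATP5D, the delta subunit of the central stalk, had 164 and 166 CPM in the KI696 libraries at 24 h, against 131 and 132 CPM in the DMSO libraries (log2 change 0.33 ± 0.06 (SE), adjusted p = 3.54e-04). After 48 h there were 215 and 211 CPM in KI696 libraries, against 164 and 161 CPM in DMSO libraries (log2 change 0.39 ± 0.06 (SE), adjusted p = 8.33e-05). Libraries of a group differed by a few CPM, and both calls held in every alternative run. ATP5D also rose with time in DMSO cells, by a log2 change of 0.31 ± 0.06 (SE) from 24 h to 48 h (adjusted p = 0.00436), a call lost without DMSO library A at 24 h and without the variance trend.

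The genes ATP5G1, ATP5G2 and ATP5G3 encode the same mature c subunit of the proton-driven ring and differ in their import sequences. ATP5G1 had 83.6 and 72.6 CPM in the KI696 libraries at 24 h, against 63.4 and 59.5 CPM in the DMSO libraries (log2 change 0.34 ± 0.11 (SE), adjusted p = 0.017), and at 48 h 96.7 and 88.3 CPM in KI696 libraries, against 65.2 and 51.9 CPM in DMSO libraries (log2 change 0.67 ± 0.11 (SE), adjusted p = 1.81e-04), the highest log2 change of any row at 48 h. ATP5G2 had 303 and 287 CPM in the KI696 libraries at 48 h, against 245 and 248 CPM in the DMSO libraries (log2 change 0.26 ± 0.06 (SE), adjusted p = 0.00482), with 0.03 at 24 h. ATP5G3 had 279 and 269.6 CPM in the KI696 libraries at 24 h, against 328 and 299 CPM in the DMSO libraries (log2 change -0.19 ± 0.06 (SE), adjusted p = 0.0189), lost with TMM scaling (adjusted p = 0.307), and a log2 change of -0.03 at 48 h. ATP5G1 lost its call at 24 h without KI696 library A or without DMSO library B.

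As a share of reads, not corrected for transcript length, ATP5G1 made up 13.3% and 12.4% of the c subunit total in KI696 libraries at 24 h, against 9.70% and 9.95% in DMSO libraries, and 13.1% and 12.5% in KI696 libraries at 48 h, against 9.89% and 8.24% in DMSO libraries. The total itself was 631 and 587 CPM in KI696 libraries at 24 h, against 653 and 598 CPM in DMSO libraries, with overlap. At 48 h it was 738 and 704 CPM in KI696 libraries, against 659 and 629 CPM in DMSO libraries.

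Stator and membrane subunits of ATP synthase differed among themselves. ATP5F1, the b subunit of the peripheral stalk, had 238 and 243 CPM in the KI696 libraries at 48 h, against 200.05 and 188 CPM in the DMSO libraries (log2 change 0.31 ± 0.06 (SE), adjusted p = 8.30e-04). ATP5H, the d subunit of the same stalk, had 85.5 and 89.4 CPM in the KI696 libraries at 24 h, against 109 and 97.3 CPM in the DMSO libraries (log2 change -0.24 ± 0.07 (SE), adjusted p = 0.014) and -0.13 at 48 h, where it was not called. ATP5I, the e subunit of the dimer interface, rose at 48 h (log2 change 0.38 ± 0.10 (SE), adjusted p = 0.00734), and its partner ATP5L, the g subunit, fell at 24 h (log2 change -0.23 ± 0.07 (SE), adjusted p = 0.0144) and had 0.09 at 48 h. The falls of ATP5H and ATP5L were lost with TMM scaling, and the rise of ATP5I was lost without KI696 library A at 48 h. Of the rows outside the complexes, ATP5S and ATP5SL, assembly factors despite their symbols, and ATP5EP2, a pseudogene of ATP5E, were not called.

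In all, 13 of the 83 tested rows were called in the same direction at both times. Called higher at both times were SDHB, NDUFA9, NDUFA10, UQCRC2, CYC1, ATP5G1, ATP5D and CYCS, and among those called lower at both were NDUFS1, NDUFB5, NDUFA1 and SDHC. Another 11 were called only at 24 h, 23 only at 48 h, 36 at neither time and 0 in opposite directions. Across all 13213 tested genes 2012 were higher at both times, 2635 lower at both and 27 opposite. Of these genes 1748 were called only at 24 h, 1771 only at 48 h and 5020 at neither time. Among the 83 rows 8 were higher and 5 lower at both times, in each direction a smaller share than among all tested genes. Opposite calls were rare among all tested genes, so the 0 among the rows says little about them.

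A call at one time and not at the other is no test of a difference. In the test of the difference itself, 0 of 83 rows were called by limma, with 0.848% of all tested genes called. Unadjusted p was under 0.05 for 19 of the 83 rows, all with a larger value at 48 h, beside 16% of all tested genes in either direction. The smallest adjusted p was 0.0825 for SDHB (difference of log2 changes 0.37 ± 0.09 SE). Limma with voom weights called 0, with 10 rows and 14.8% of all tested genes at unadjusted p under 0.05. Limma after TMM scaling called 0, with 9 rows and 15% of all tested genes at unadjusted p under 0.05. With TMM scaling 0.409% of all tested genes were called higher and 0.204% lower. NDUFC1 had a difference of 0.53 ± 0.14 (adjusted p = 0.0905), and CYCS one of 0.00 ± 0.09. In DMSO cells alone, ATP5D and COX5A (log2 change 0.19 ± 0.06, adjusted p = 0.0441) rose from 24 h to 48 h and 0 rows fell, with 5.29% of all tested genes rising and 4.35% falling (9.64% in either direction). The call of COX5A was lost with TMM scaling (adjusted p = 0.058), quantile scaling, no variance trend, only the 2 groups compared and the covariate, and when any library at 24 h or DMSO library B at 48 h was left out.

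The counts for genes that build, import and regulate the chain stand beside 18.1% of all tested genes rising and 30.5% falling at 24 h, and 22.4% rising and 26.4% falling at 48 h; no list was tested against these shares. At 24 h the covariate lowered the shares over all tested genes to 8.65% and 15.1%, and the number of list genes that rose with it was 11 of 21 for import, chaperones and matrix, 4 of 15 for complex I factors, 4 of 24 for complex IV factors and 5 of 12 for nuclear regulators. Mitochondrial import, chaperone and matrix genes rose in 16 of 21 cases at 24 h, with 1 falling (median log2 change 0.38), and in 17 of 21 at 48 h, with 0 falling (median 0.52). TOMM40, the channel of the outer membrane, had 403 and 381 CPM in the KI696 libraries at 24 h, against 217 and 217 CPM in the DMSO libraries (log2 change 0.85 ± 0.06 (SE), adjusted p = 2.03e-07). HSPD1, the matrix chaperonin, had 1873 and 1974 CPM in the KI696 libraries at 24 h, against 1128 and 1116 CPM in the DMSO libraries (log2 change 0.78 ± 0.06 (SE), adjusted p = 9.57e-07). HSPA9, the matrix Hsp70 that pulls proteins in, had a log2 change of 0.65 at 24 h and 0.79 at 48 h. IMMT, an organizer of cristae, was the one that fell at 24 h, and with TMM scaling 0 of the 21 fell. No KI696 library overlapped a DMSO library for the 3 genes with values here.

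Complex I assembly factors rose in 7 of 15 cases with 0 falling at 24 h (median 0.19) and in 9 of 15 with 1 falling at 48 h (median 0.43). NDUFAF2, which binds late intermediates, had 36.0 and 35.7 CPM in the KI696 libraries at 48 h, against 17.8 and 17.5 CPM in the DMSO libraries (log2 change 1.01 ± 0.11 (SE), adjusted p = 1.05e-05). NDUFAF4 had 40.0 and 49.2 CPM in the KI696 libraries at 48 h, against 20.7 and 23.5 CPM in the DMSO libraries (log2 change 1.00 ± 0.12 (SE), adjusted p = 1.26e-05), and TMEM126B, a member of the complex that assembles the membrane arm, had 111 and 109 CPM in the KI696 libraries at 24 h, against 66.5 and 65.7 CPM in the DMSO libraries (log2 change 0.73 ± 0.08 (SE), adjusted p = 7.78e-06). TIMMDC1, another membrane arm factor, was the one that fell at 48 h. The log2 changes of NDUFAF2, NDUFAF4 and TMEM126B are above that of any of the 36 complex I rows, the highest of which was 0.39 for NDUFS6.

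Complex IV assembly factors rose in 6 of 24 cases with 2 falling at 24 h, and in 9 of 24 with 1 falling at 48 h. COA6, a copper-handling factor for the COX2 site, had 55.0 and 43.8 CPM in the KI696 libraries at 24 h, against 20.2 and 19.1 CPM in the DMSO libraries (log2 change 1.31 ± 0.14 (SE), adjusted p = 6.96e-06) and a log2 change of 1.73 at 48 h. LRPPRC, which stabilizes mitochondrial mRNAs, had 743 and 799.9 CPM in the KI696 libraries at 48 h, against 462 and 462 CPM in the DMSO libraries (log2 change 0.74 ± 0.06 (SE), adjusted p = 4.69e-07). COA4 had log2 changes of 0.57 and 0.69. SURF1, the factor mutated in a form of Leigh syndrome, fell at both times, and COX17, a copper chaperone, fell at 24 h. With TMM scaling only 1 of the 24 factors fell at 24 h.

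For the other complexes the lists were short, as UQCC1, UQCC2, UQCC3, SDHAF3 and SDHAF4 were not found under these symbols. NDUFAF8, DMAC1, DMAC2 and COA7 of the complex I and IV lists were not found either, though DMAC2 is present as ATP5SL. Among 3 complex III factors, LYRM7, the chaperone of the Rieske protein, rose (0.56 at 24 h, 0.86 at 48 h), TTC19 fell (-0.45, -0.79) and BCS1L, which inserts the Rieske protein, rose at 48 h (0.62). The 2 complex II factors found were called only at 48 h, SDHAF1, the iron-sulfur chaperone of SDHB, higher (0.48) and SDHAF2, which adds the flavin to SDHA, lower (-0.42). SDHAF1 had 24.7 and 25.5 CPM in the KI696 libraries at 48 h, against 18.5 and 17.3 CPM in the DMSO libraries, and SDHAF2 had 33.6 and 35.5 CPM in the KI696 libraries at 48 h, against 47.9 and 45.1 CPM in the DMSO libraries. A list of 6 genes for complex V held 4 factors and regulators and the small ATP synthase subunits USMG5 and C14orf2, whose symbols do not match the ATP5 rule. Of the 6, 2 rose and 3 fell at 24 h (2 and 2 with TMM scaling, 2 and 0 with the covariate) and 2 rose and 1 fell at 48 h. C14orf2 rose (0.26 at 24 h, 0.31 at 48 h), and USMG5 was not called (0.06, 0.13). Among the factors TMEM70, which acts on the c ring, was higher (0.54, 0.52) and ATPAF1, a chaperone of the beta subunit, was lower (-0.35, -0.37). Of 3 cytochrome c maturation and intermembrane import genes, CHCHD4 (0.67, 0.62) and GFER (0.27, 0.31) rose at both times.

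**Figure D4:**
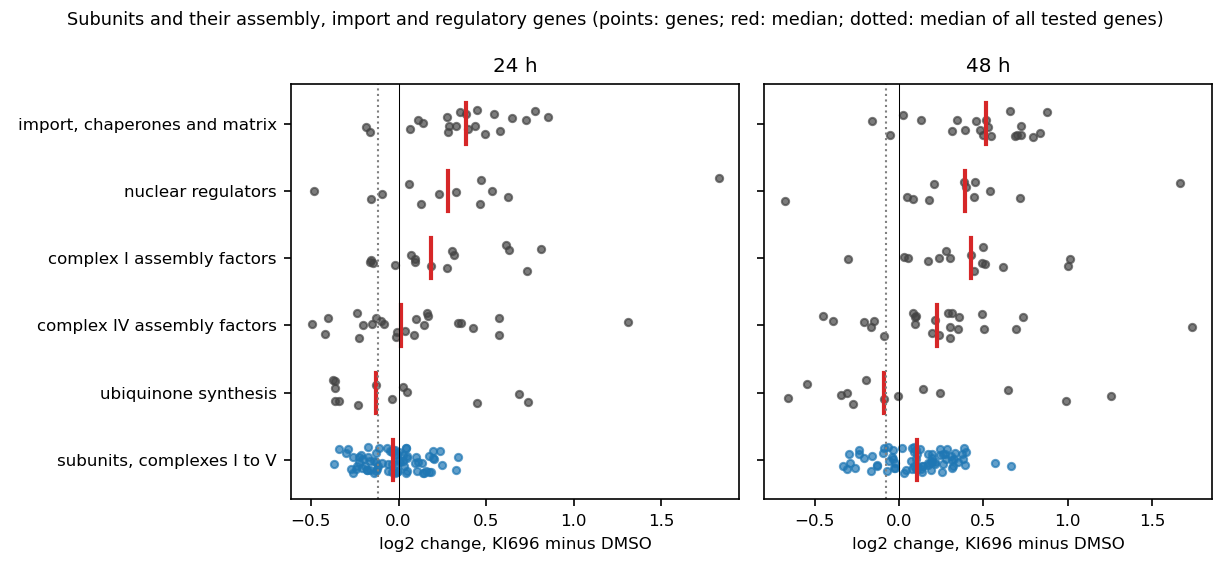
Log2 change (KI696 minus DMSO, horizontal axes) of the genes of 5 lists and of the 75 subunits of complexes I to V at 24 h and 48 h, with the median in red and the median of all tested genes as a dotted line. The list medians for import, chaperones and matrix are 0.38 and 0.52, and those of the subunits are -0.03 and 0.11.

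Nuclear regulators of respiratory genes rose in 6 of 12 cases with 1 falling at 24 h, and in 8 of 12 with 1 falling at 48 h. PPARGC1B, a coactivator of respiratory genes, had 30.1 and 34.8 CPM in the KI696 libraries at 24 h, against 7.60 and 10.5 CPM in the DMSO libraries (log2 change 1.83 ± 0.15 (SE), adjusted p = 1.40e-06) and a log2 change of 1.66 at 48 h. PPARGC1A, its better known paralog, was the one that fell, with log2 changes of -0.48 and -0.68. TFB2M and POLRMT, which transcribe mitochondrial DNA, had log2 changes of 0.72 and 0.54 at 48 h, and PPRC1, the third member of the coactivator family, and GABPB1, a subunit of GABP, had 0.62 and 0.53 at 24 h. All of these passed at those times.

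Enzymes that feed or bypass the chain were mixed. Of 13 other electron entries and NAD(P)H oxidizers, 7 rose and 3 fell at 24 h, and 8 rose and 3 fell at 48 h. NQO1, the cytosolic quinone reductase and NRF2 target, had 1939 and 2273 CPM in the KI696 libraries at 48 h, against 319.8 and 244 CPM in the DMSO libraries (log2 change 2.91 ± 0.10 (SE), adjusted p = 1.16e-09). AIFM2, a ubiquinone reductase outside mitochondria, rose (0.65 at 24 h, 0.71 at 48 h), and NNT, the inner membrane transhydrogenase between NADH and NADP, fell with 102 and 107 CPM in the KI696 libraries at 24 h, against 158 and 152 CPM in the DMSO libraries (log2 change -0.57 ± 0.07 (SE), adjusted p = 2.54e-05). Ubiquinone synthesis genes rose in 3 and fell in 5 of 13 cases at each time (2 falling at 24 h and 3 at 48 h with TMM scaling, and 2 rising and 2 falling at 24 h with the covariate), shares near those of all tested genes. PDSS1, which makes the side chain, rose (0.74, 0.99), as did ADCK3, a kinase-like regulator of the pathway (0.69, 1.26), and COQ9, a lipid-binding partner of the pathway, fell (-0.36, -0.35). Of 8 carriers and channels, 2 rose and 3 fell at 24 h and 4 rose and 2 fell at 48 h. UCP2, an inner membrane carrier of the uncoupling protein family, had 20.9 and 17.3 CPM in the KI696 libraries at 48 h, against 48.3 and 52.5 CPM in the DMSO libraries (log2 change -1.39 ± 0.12 (SE), adjusted p = 8.17e-07), and VDAC1, the outer membrane channel, had 457 and 458 CPM in the KI696 libraries at 24 h, against 336 and 351 CPM in the DMSO libraries (log2 change 0.42 ± 0.05 (SE), adjusted p = 5.17e-05).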

How the data were processed

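Poly(A) mRNA from Calu-6 cells (KI696 or DMSO, 24 or 48 h, 2 libraries each) was sequenced as single reads. The authors deposited 1 table of log2 values, read here as log2 CPM with a small prior; the submitters' processing notes name hg38, R 4.0.3 and edgeR, while for aligner, counter, annotation and strand setting the sources used here give nothing. Whole reads were recovered from the steps of the deposited log2 values (largest distance from a whole number 2.39e-09 over all values), and CPM levels are these reads times the value of 1 read. Rows whose symbol is a date (21 of 14556) were left out.

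Limma 3.58.1 (R 4.3.3) with a variance trend was fitted to the deposited log2 values of 13213 genes (1 CPM or more in 2 or more of the libraries), with 4 group means and 4 residual degrees of freedom, and p-values were adjusted by Benjamini-Hochberg over all of these genes (two-sided, threshold 0.05). A fold change is thus on the log2(CPM plus prior) scale. The spread of each gene was drawn toward a trend over all tested genes, weighted as 9.09 further degrees of freedom. The headers give no replicate number, so A and B follow column order and pair nothing. Alternatives were TMM, median-ratio and quantile scaling, offsets of 1 and 5 CPM, other filters, no trend, only the groups compared, a lung lineage covariate and leaving out each library; voom was added after seeing the data. The code was tested on simulated data.

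The members and lists were chosen with earlier results of these data known. Named, except for items not reported here, are all rows called at 24 h, the 12 of smallest p in each direction at 48 h, the fixed markers of each complex and up to 3 called genes per list; other rows were named after their values were seen, to complete a complex, a gene family or a count. Current symbols and coordinates came from RefSeq (GRCh38.p14). Levels are not compared between genes, as they are not per length, and limits for counts of 0 cover counting error only.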

Additional observations from a re-analysis of the deposited data

How the results depend on the processing

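Against 8 rows higher and 16 lower at 24 h, TMM scaling gave 18 and 1, median-ratio scaling 20 and 1, voom 19 and 1, no variance trend 4 and 4, and the lung lineage covariate 3 and 0. At 48 h, against 29 higher and 7 lower, no variance trend gave 19 and 4, and TMM, median-ratio scaling and voom each gave 4 lower. For the rise with time in DMSO cells, against 2 rows, median-ratio scaling gave 4, no variance trend 0, only the 2 groups compared 1 and the covariate 4. Leaving out each library in turn gave 3 to 10 higher and 2 to 17 lower at 24 h, 22 to 27 higher and 4 to 8 lower at 48 h, 0 to 3 rows for the difference of effects and 0 to 3 for the rise with time in DMSO cells. At 24 h the counts were 3 higher and 5 lower without KI696 library A, 8 and 4 without KI696 library B, 7 and 2 without DMSO library A, and 3 and 12 without DMSO library B; at 48 h 4 were lower without KI696 library B or without DMSO library A. Where a group is left with 1 library, that library is assumed to vary like the others. UQCRB at 24 h changed sign with the covariate (0.019). The cause of these shifts was not tested. Of the 24 calls at 24 h, 9 held with TMM scaling and 3 with the covariate. Of the 36 at 48 h, 33 and 36 held. At 24 h the covariate was low in both KI696 libraries and high in both DMSO libraries. Calls lost with it there cannot separate lineage level from treatment. No paired analysis was possible because the columns carry no replicate number. The count tests of edgeR and DESeq2 were not run. With 2 libraries a group and a median standard error of 0.07 on the log2 scale over the rows, small changes can be missed.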

Other observations

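NDUFAB1, the acyl carrier protein that is also a complex I subunit, does not match the symbol rule and is in none of the counts above. It had 123 and 113 CPM in KI696 libraries at 24 h, against 94.5 and 96.0 CPM in DMSO libraries (log2 change 0.31 ± 0.08 SE, limma adjusted p = 0.00433). At 48 h it had 122 and 136 CPM in KI696 libraries, against 100.4 and 93.5 CPM in DMSO libraries (0.41 ± 0.08 SE, adjusted p = 0.000542). The pseudogenes SDHAP1 and SDHAP2, copies of SDHA, had 3.97 to 4.63 and 15.6 to 17.7 CPM in KI696 libraries at 48 h, against 5.69 to 6.17 and 17.2 to 20.0 CPM in DMSO libraries, and were not called at either time.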
